A study of Mus musculus with 107 samples.

Results

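The ubiquitin-conjugating enzymes (E2s) named Ube2 were followed in single mouse eggs labelled as homozygous for a mutation of mos, the gene of the kinase MOS, in eggs that had been activated with strontium, and in wildtype eggs. They were all the gene symbols of the count table that begin with Ube2, without Ube2c and Ube2s, which serve the anaphase promoting complex, and without pseudogene symbols marked -ps. This gave 35 of 21564 symbols. Of these, 30 passed the filter on low counts and were tested among 13832 genes, and 5 did not pass. Ube2dnl1 and Ube2dnl2 had no count in any of 107 eggs, Ube2l6 had 1 count and Ube2d2b 3 counts in all, and Ube2ql1 had 9 counts in M3 eggs, 5 in activated eggs and 14 in WT eggs.

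E2 enzymes are the middle step of ubiquitin transfer. An E1 enzyme activates ubiquitin and hands it to the active-site cysteine of an E2, and an E3 ligase then brings the loaded E2 to a substrate. The E2 often decides which kind of ubiquitin chain is built, and a few E2s carry NEDD8 or ISG15 in place of ubiquitin. In mammalian eggs, which make little new RNA, messages are stored during growth, and protein degradation through ubiquitin is needed to leave metaphase II arrest and to clear maternal proteins.

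Mutant eggs came from C57BL/6J females homozygous for a mos mutation (mos -/-) and carried the group names M1 (22 eggs), M2 (18 eggs) and M3 (21 eggs), which the labels do not define. In the deposited egg table the number of growths, also undefined, was 1 for M1, 2 for M2 and 3 for M3. Activated eggs (17) and untreated wildtype eggs (WT, 29) came from wildtype C57BL/6J females. The same egg table gives 1 growth for WT eggs and 1 or 2 for activated eggs, which were not split by it. All females were 2 to 3 months old and had 5 IU of pregnant mare serum gonadotropin 48 h before oocyte collection, and all oocytes were isolated in 2.5 µM milrinone and matured in CZB medium. Activated eggs were moved at 15 to 16 h after germinal vesicle breakdown into calcium-free CZB with 10 mM strontium chloride for 2 h, and collection was at 38 to 40 h after breakdown for every group. Batch 1 held 4 M1, 2 M2, 3 M3 and 5 WT eggs, and batch 2 held 18 M1, 16 M2, 18 M3, 17 activated and 24 WT eggs. Libraries were made by Smart-seq2, which starts from poly(A) tails, so a change in amount and a change in tail length cannot be told apart. No label ties eggs to animals, and counts were therefore summed per group and batch into 9 sums, which are the units of the comparisons with WT and activated eggs. The interaction with batch left out the activated sum, and the mutant groups were compared with each other over 9 sums of group and plate.

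Median counts per egg were 6127048 to 8144112 in the groups of batch 1 and 207420 (WT) to 796582 (activated) in those of batch 2, and 3 mutant eggs had under 10000 counts. In 9 of the 24 WT eggs of batch 2, 50 genes took more than 35% of the counts, up to 45.9%. In batch 2, WT eggs filled Plate3 and activated eggs Plate4, while mutant eggs were on Plate1 and Plate2, so plate and group cannot be told apart there. The library names put batch 1 on 1 plate, but the deposited egg table gives PlateA for its 5 WT eggs and 2 of its 9 mutant eggs (M1 egg 6 and M3 egg 1) and PlateB for the other 7 mutant eggs. Mos itself was at 0.868 to 13.3 raw CPM (a gene's counts relative to the total of its sum) in the mutant sums, 5.33 in activated eggs, and 6.52 and 31.6 in WT eggs. The labels do not give the mutated stretch, so this level does not check them. In batch 1, M1 eggs (5.72 raw CPM) were close to WT eggs (6.52), and 1 M1 egg held 110 of 150 Mos counts there. Each of 10 egg markers was found in every sum, together at 2527 to 12043 raw CPM. The 12 granulosa and cumulus markers summed to 203 to 304 raw CPM in mutant eggs, 92.7 in activated eggs, and 276 and 294 in WT eggs. Of these, Ptx3 was at 0 in every sum, and Fshr and Tnfaip6 were at 0 in every sum but that of activated eggs. Theca, stroma and endothelium markers (8) summed to 41.7 to 146 raw CPM in mutant eggs, 106 in activated eggs, and 78.1 and 87.2 in WT eggs. The 7 blood markers summed to 3.22 to 27.03 raw CPM in mutant eggs, 22.9 in activated eggs, and 7.04 and 11.8 in WT eggs. The part of these other markers in the results below was not tested.

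The most abundant Ube2 transcript of the egg was counted under Ube2q2l, which RefSeq gives as another name of Gm4895, a pseudogene at chr10:22153280-22154416 on the minus strand (GRCm38). GENCODE M21 lists it as a processed pseudogene, a copy of the message of Ube2q2, which lies on chromosome 9 and encodes an E2 of the less studied UBE2Q branch. The annotated copy has 1137 bases, as many as the Ube2q2 coding sequence with its stop codon. The 2 sequences differ at 11 bases (99.03% identity), and the only in-frame stop codon of the copy is the one at its end, after an ATG start. The first 150 bases are shown because they hold 5 of the 11 differences, written in capitals, and no stretch of that length holds more. Every other stretch of 150 bases is therefore at least as alike between the 2 loci. Both sequences are from GENCODE M21 transcripts, 5′ to 3′.
Ube2q2l: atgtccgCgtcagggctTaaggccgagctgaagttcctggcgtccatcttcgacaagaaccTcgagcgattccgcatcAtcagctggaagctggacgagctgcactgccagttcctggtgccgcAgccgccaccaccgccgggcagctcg
Ube2q2: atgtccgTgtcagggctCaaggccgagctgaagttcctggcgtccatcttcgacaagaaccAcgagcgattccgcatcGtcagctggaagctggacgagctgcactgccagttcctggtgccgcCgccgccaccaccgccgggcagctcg

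Of the 1088 stretches of 50 bases in the copy, 712 (65.4%) also occur in Ube2q2, and 16.4% of those in Ube2q2 occur in the copy. How the counting treated a read that fits both loci was not given in the sources used here, and the split between them is uncertain. As counted, Ube2q2l had 19061 to 78120 counts per sum and Ube2q2 24 to 341. Its CPM, scaled by the trimmed mean of M values (TMM), was 2265 in M1, 1214 in M2 and 1944 in M3 eggs of batch 1, against 2424 in WT eggs. In batch 2 it was 4492 in M1, 3529 in M2, 4374 in M3 and 4097 in activated eggs, against 5219 in WT eggs. Every mutant sum and the activated sum lay below the WT sum of its batch, by less than the fit could call: log2 fold −0.40 ± 0.16 (SE) for mutant over WT (edgeR adjusted p = 0.139) and −0.40 ± 0.26 for activated over WT (adjusted p = 0.388). Without TMM scaling the ratio to WT in batch 2 was 0.991 in mutant eggs and 0.990 in activated eggs, so the difference there came with the scaling. Ube2q2l made up 57.9 to 64.8% of all Ube2 counts in the 5 sums of batch 2, and 30.6 to 39.4% in the M1, M3 and WT sums of batch 1. In the M2 sum of batch 1 the top place went to Ube2d3, with 34.5%. Together the 35 genes took 0.555 to 0.735% of all counts in a sum, and the 5 highest of a sum held 80.8 to 91.5% of that.

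Per kilobase of merged exons, Ube2q2l was first in WT eggs at a mean of 3361 TMM-scaled CPM per kilobase over the 2 WT sums. The next places went to Ube2d3 (76.2), Ube2k (70.1), Ube2g2 (53.8) and Ube2g1 (51.7). These 4 overlapped between the 2 WT sums, with Ube2d3 at 94 and 58.3, Ube2k at 79.2 and 60.9, and Ube2g2 at 34.7 and 72.9, so their order among themselves is not settled by these sums. Ube2g1 and Ube2g2 traded places between the batches in WT eggs. Every sum of Ube2q2l (1068 or more) was above every sum of the other genes (133.1 or less). Divided by the length of 1 main transcript instead, since merged exons count rare isoforms (24499 bases for Ube2d3), Ube2q2l was still first at 2232 and Ube2d3 second at 487. For Ube2q2l this length was the 1712 bases of its RefSeq entry, against 1137 in GENCODE. Its lower value therefore comes from the annotation used. At the low end, Ube2v2 and Ube2q1 were at 0.0218 and 0.0175 CPM per kilobase of merged exons, with no count in the WT sum of batch 2.

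**Figure D1:**
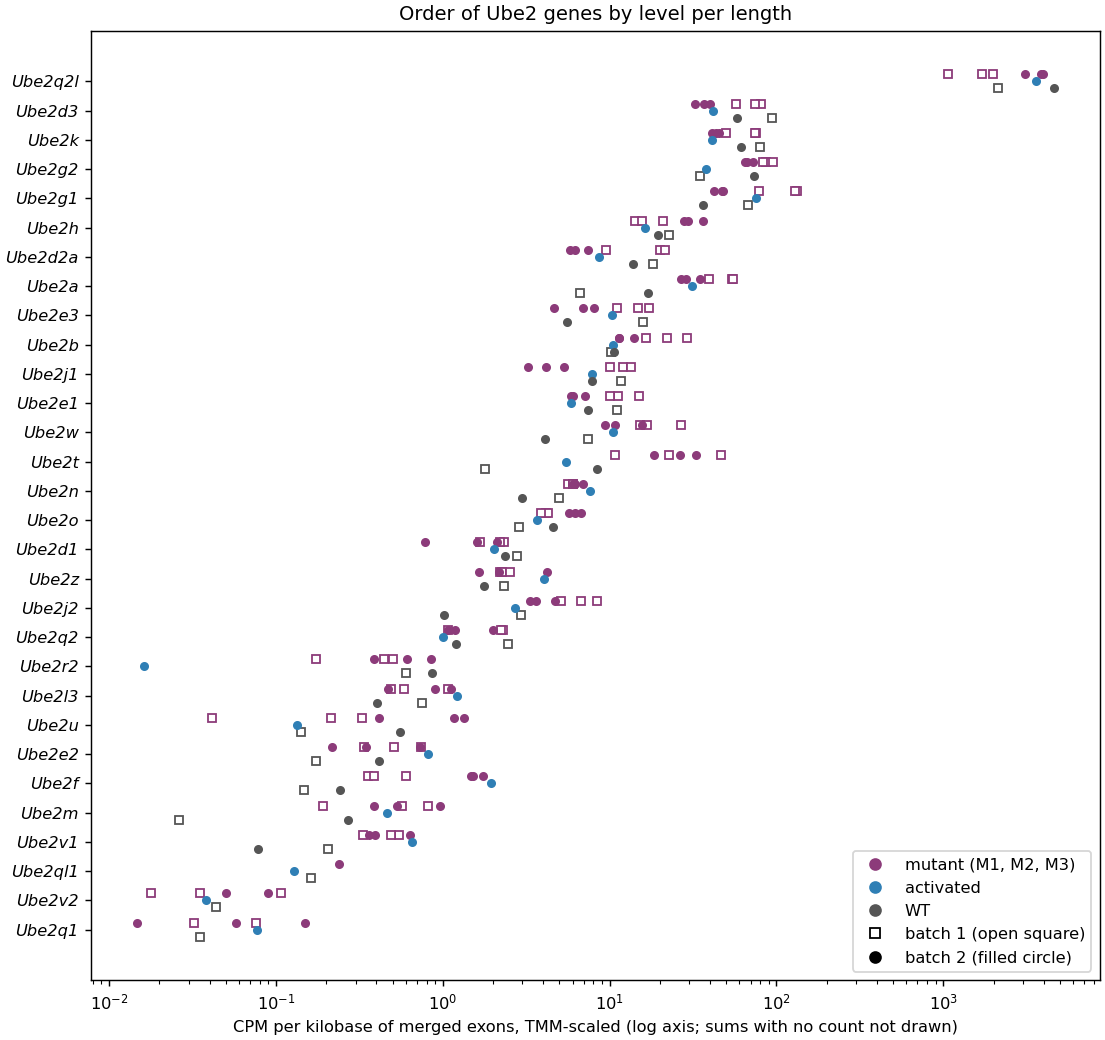
TMM-scaled CPM per kilobase of merged exons (x, log axis) for 30 Ube2 genes with a count in WT eggs (y, ordered by the mean of the 2 WT sums). Each mark is 1 sum, with mutant, activated and WT eggs on separate levels of a row, and Ube2q2l stands apart at 1068 to 4590 while the next genes overlap one another.

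The message ends were read for the cytoplasmic polyadenylation element (CPE), which binds CPEB and governs tail length in maturing oocytes. The letters TTTTAT or TTTTAAT were searched on the sense strand of the last 100 bases of the 3′ UTR in GENCODE M21. They were found in 4 of 31 Ube2 genes with a long enough UTR (12.9%), against 18% of 17292 genes, and the difference was not tested. The windows of 3 of them are shown with the element in capitals, 30 bases each, because Ube2t, the first shown, is among the genes called in mutant eggs.
Ube2t: aaggatagtttgTTTTATttatcttgtaca
Ube2g2: TTTTATtcatttgtatttattaaatgaaaa
Ube2q2: tttttttgaTTTTATttttcattgcagatt

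The element ended 64 bases before the annotated end in Ube2t, 94 in Ube2g2 and 85 in Ube2q2. The polyadenylation signal AATAAA lay 16 bases before the end in Ube2t, and 17 in Ube2g2 and Ube2q2, so it did not overlap the element in these 3 genes. AATAAA or ATTAAA was in the last 40 bases of 76.3% of genes. Ube2q2 was not called in any comparison below, and Ube2g2 was called only under some other settings.

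Against WT eggs, 6 of the 30 tested Ube2 genes passed an adjusted p of 0.05 in mutant eggs (20%), against 9.38% of all 13832 genes tested. Ube2t, Ube2f, Ube2a, Ube2j2 and Ube2w rose and Ube2d3 fell. The 5 that rose are 16.7% of the 30, against 5.36% of all genes, and the 1 that fell is 3.33%, against 4.03%. In activated eggs 4 of the 30 passed (13.3%, against 13% of all genes): Ube2f, Ube2g1 and Ube2w rose (10.0%, against 5.66%) and Ube2r2 fell (3.33%, against 7.33%). Ube2f and Ube2w were called higher in both comparisons, which share the WT sums. The median log2 fold over the 30 was 0.51 in mutant eggs, against 0.06 over all genes, and 0.31 in activated eggs, against 0.15. Of the 30, 20 had a positive fold in mutant eggs (66.7%, against 53.6% of all genes) and 18 in activated eggs (60%, against 55%). Equal thinning of the eggs to 60000 counts left 22 of the genes testable and changed the split to 4 higher and 3 lower in mutant eggs, against 5 and 1 in full data, and to 4 higher and 0 lower in activated eggs, against 3 and 1. Thinning left Ube2r2, the 1 lower gene of the full data, in 0 of 17 activated and 0 of 24 WT eggs of batch 2. Its fall could therefore not be tested at equal depth. The median fold over the 22 testable genes was then 0.35 in mutant eggs, against −0.02 over all genes, and −0.22 in activated eggs, against 0.075. The full-data medians cover 30 genes, so these medians differ from them in gene set as well as in depth. The full-data medians of the 22 genes alone were not worked out. Without the 9 WT eggs in which few genes took many counts, the numbers of called genes were 4 in mutant and 3 in activated eggs, with Ube2d3 and Ube2t lost in mutant eggs and Ube2w in activated eggs. The shares of all genes called at equal depth or without these 9 eggs were not worked out.

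**Figure D2:**
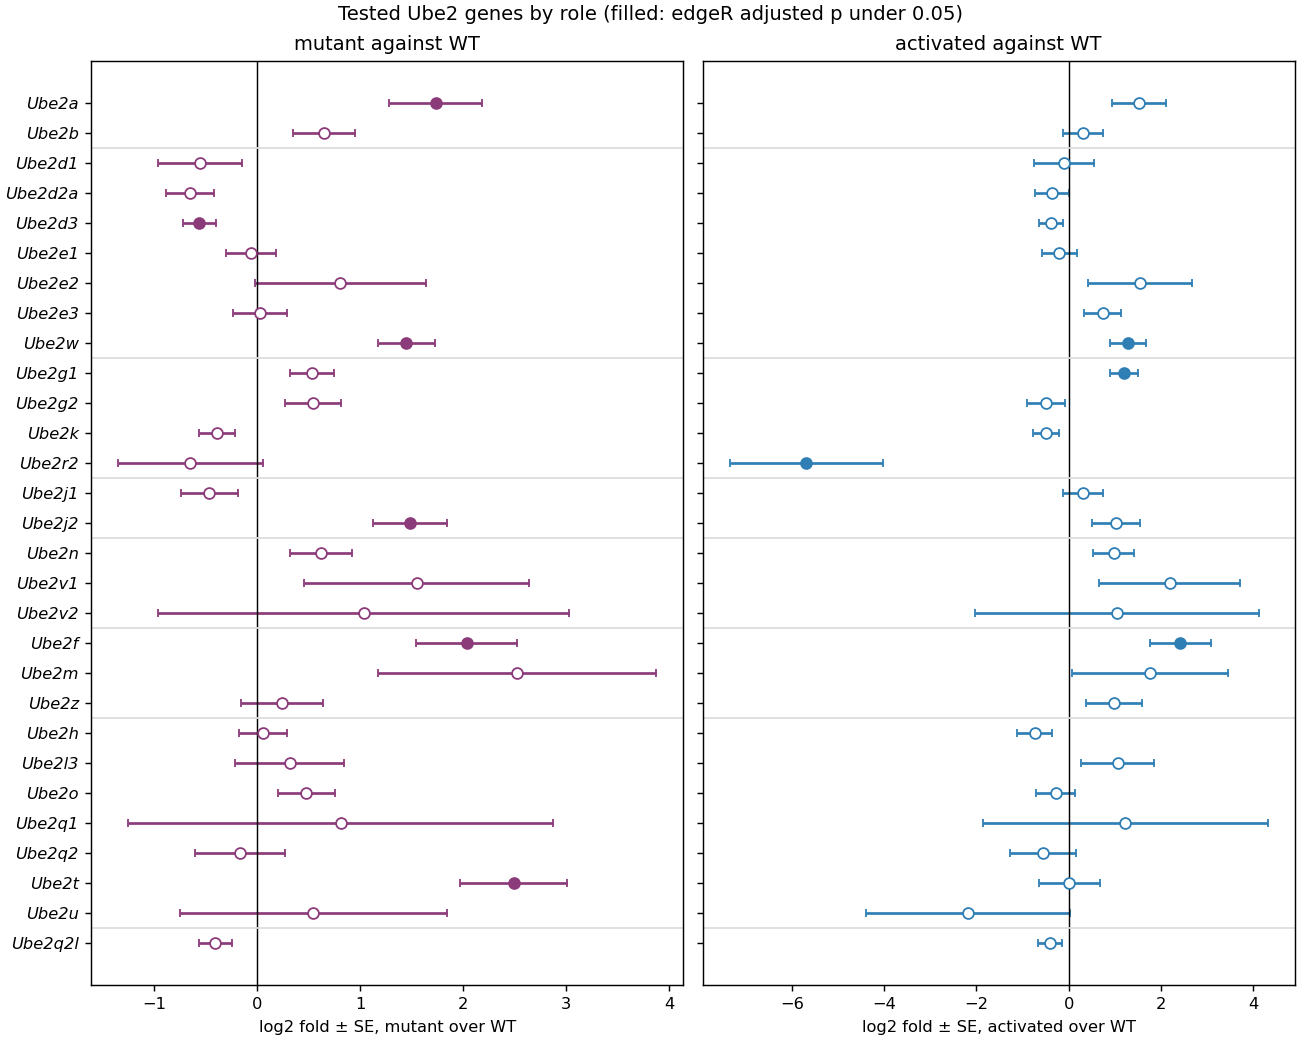
Log2 fold ± SE of 29 of the 30 tested Ube2 genes (rows, by role from the RAD6 type at the top to the retrocopy at the bottom) in mutant over WT eggs (left) and activated over WT eggs (right). Filled points passed edgeR's adjusted p of 0.05; Ube2f and Ube2w are filled and above 0 in both panels, and Ube2r2 at −5.69 is far below 0 in activated eggs.

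Ube2a and Ube2b are the mammalian RAD6 enzymes, which ubiquitinate histone H2B with RNF20 and RNF40 and PCNA with RAD18. Of the pair, Ube2a rose in mutant eggs and Ube2b did not pass. In batch 1 Ube2a (chrX:36873900-36884222, plus strand) had 123.7 TMM-scaled CPM in M1, 89.9 in M2 and 124.5 in M3 eggs, against 15.0 in WT eggs. Batch 2 gave 65.3 in M1, 79.1 in M2, 60.8 in M3 and 70.7 in activated eggs, against 38.5 in WT eggs. Each mutant sum lay above both WT sums. The log2 fold for mutant over WT was 1.73 ± 0.45 (edgeR adjusted p = 0.0411), made up of a difference of 2.88 in batch 1 and 0.82 in batch 2. Without the WT sum of batch 1 the fold was 0.83 (adjusted p = 0.123), and without the M1 eggs 6 and 21, which held most Mos counts, it was 1.73 (adjusted p = 0.0524). The call was also lost under upper quartile scaling (adjusted p = 0.0512) and without the batch 1 sum of M1 or M2 or the batch 2 sum of M2. Among single eggs of batch 1 the 9 mutant eggs had 47.5 to 228 raw CPM and the 5 WT eggs 5.04 to 22.99, with no overlap. The 2 mutant eggs on PlateA with the WT eggs, by the deposited egg table, had 111.8 and 135.5. In batch 2 single eggs overlapped widely, with 0 to 150 raw CPM in M1, 29.6 to 244 in M2 and 26.1 to 105.5 in M3 eggs, against 0 to 95.9 in WT eggs. Within batch 2 alone activated minus WT was 0.88 in log2 CPM. The fitted fold in activated eggs was 1.52 ± 0.58 and was not called (edgeR adjusted p = 0.129). It was called higher under 6 of 20 other settings, among them DESeq2 (adjusted p = 0.0469), eggs of equal depth (0.00875), no filter (4.16e-04) and the fit without the batch 2 sum of WT (2.42e-04). Ube2b had 35.02, 46.7 and 61.5 CPM in M1, M2 and M3 eggs of batch 1, against 21.8 in WT eggs, but 24.1 to 29.6 in the mutant sums of batch 2, against 22.4 in WT eggs (fold 0.65 ± 0.30, adjusted p = 0.204). Ube2a shared no stretch of 50 bases with another annotated gene, although C330007P06Rik overlaps it.

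**Figure D3:**
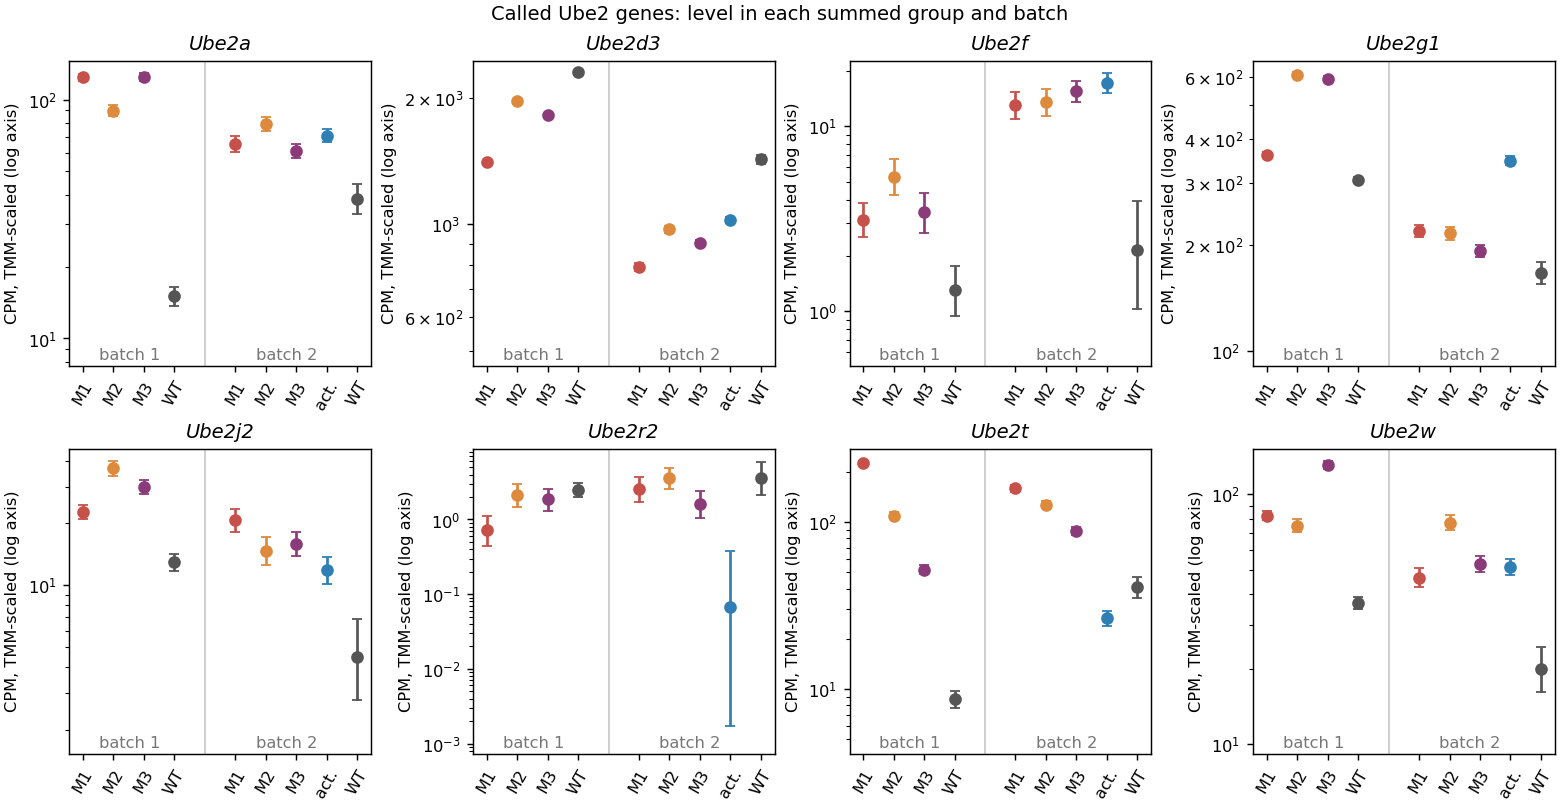
TMM-scaled CPM (y, log axis, own range per panel) of the 8 called Ube2 genes in each sum of group and batch (x, with act. for activated). Bars are exact 95% Poisson intervals, which cover counting error only. In Ube2a, Ube2f, Ube2j2, Ube2t and Ube2w the 6 mutant sums lie above both WT sums, and Ube2r2 rests on 1 count in activated eggs.

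The UBCH5 and UBE2E enzymes work with many E3 ligases, and Ube2w differs from them in putting ubiquitin on the amino terminus of proteins. Of 7 tested, Ube2w rose and Ube2d3 fell in mutant eggs, and Ube2w rose in activated eggs. Ube2w (chr1:16540790-16619489, minus strand) had 82.1 CPM in M1, 75.1 in M2 and 131 in M3 eggs of batch 1, against 36.7 in WT eggs. In batch 2 it had 46.4 in M1, 77.05 in M2, 52.8 in M3 and 51.4 in activated eggs, against 20.1 in WT eggs. All mutant sums and the activated sum were higher than both WT sums. The log2 fold was 1.45 ± 0.28 for mutant over WT (edgeR adjusted p = 0.00301), with 1.34 in batch 1 and 1.51 in batch 2, the nearest to equal of the 5 genes that rose. Of 21 other settings tried, the fit without a batch term was the only one under which this call was lost. For activated over WT the fold was 1.28 ± 0.39 (adjusted p = 0.0349), a call lost under 8 of 20 other settings, among them the fits without the M1 or M3 sum of either batch (lowest fold 1.10, adjusted p = 0.0629). After thinning to 60000 counts per egg, Ube2w was found in 15 of 16 M1, 16 of 16 M2, 16 of 17 M3 and 14 of 17 activated eggs of batch 2, against 6 of 24 WT eggs. In batch 1 it was found in 4 of 4 M1, 2 of 2 M2, 3 of 3 M3 and 4 of 5 WT eggs. Detection rates over all genes were not worked out.

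Ube2d3 (chr3:135438149-135468198, plus strand), the most abundant of the UBCH5 enzymes here, had 1405 CPM in M1, 1965 in M2 and 1818 in M3 eggs of batch 1, against 2303 in WT eggs. The level in batch 2 was 793 in M1, 973 in M2, 903 in M3 and 1023 in activated eggs, against 1429 in WT eggs. Within each batch the WT sum was the highest. The log2 fold was −0.56 ± 0.16 for mutant over WT (edgeR adjusted p = 0.0345) and −0.39 ± 0.26 for activated over WT (adjusted p = 0.392). Over pooled counts without TMM scaling, the mutant to WT ratio was 0.817 in batch 1 and 0.777 in batch 2, and activated to WT 0.902. The means of the TMM-scaled sums gave 0.751, 0.622 and 0.716. The plates of the mutant eggs differed by more than the mutant fold. Scaled among mutant sums, Ube2d3 had 2047, 1296 and 1398 CPM in M1, M2 and M3 eggs on Plate1 and 495, 593 and 584 on Plate2. With sums per plate the fold was −0.44 (adjusted p = 0.758), and without the WT eggs in which few genes took many counts it was −0.43 (adjusted p = 0.129). The call was also lost without the batch 1 sum of M1 (adjusted p = 0.0728), the batch 2 sum of M2 (0.0633) or the batch 2 sum of WT (0.302). Ube2d2a, its close relative, had 110, 231 and 250 CPM in M1, M2 and M3 eggs of batch 1, against 209 in WT eggs. Batch 2 sums held 66.7, 86.2, 71.9 and 100.1 in M1, M2, M3 and activated eggs, against 160 in WT eggs, and its mutant fold of −0.65 ± 0.24 was not called (adjusted p = 0.0984). Ube2d2a was called lower in mutant eggs under 5 of 21 other settings: no filter (edgeR adjusted p = 0.0243), DESeq2 (0.0454), eggs of equal depth (0.0173), and without the batch 1 sum of M3 (0.0241) or of WT (0.0215). Ube2d1, Ube2e1, Ube2e2 and Ube2e3 were not called in either comparison, with mutant folds of −0.56 to 0.81.

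**Figure D4:**
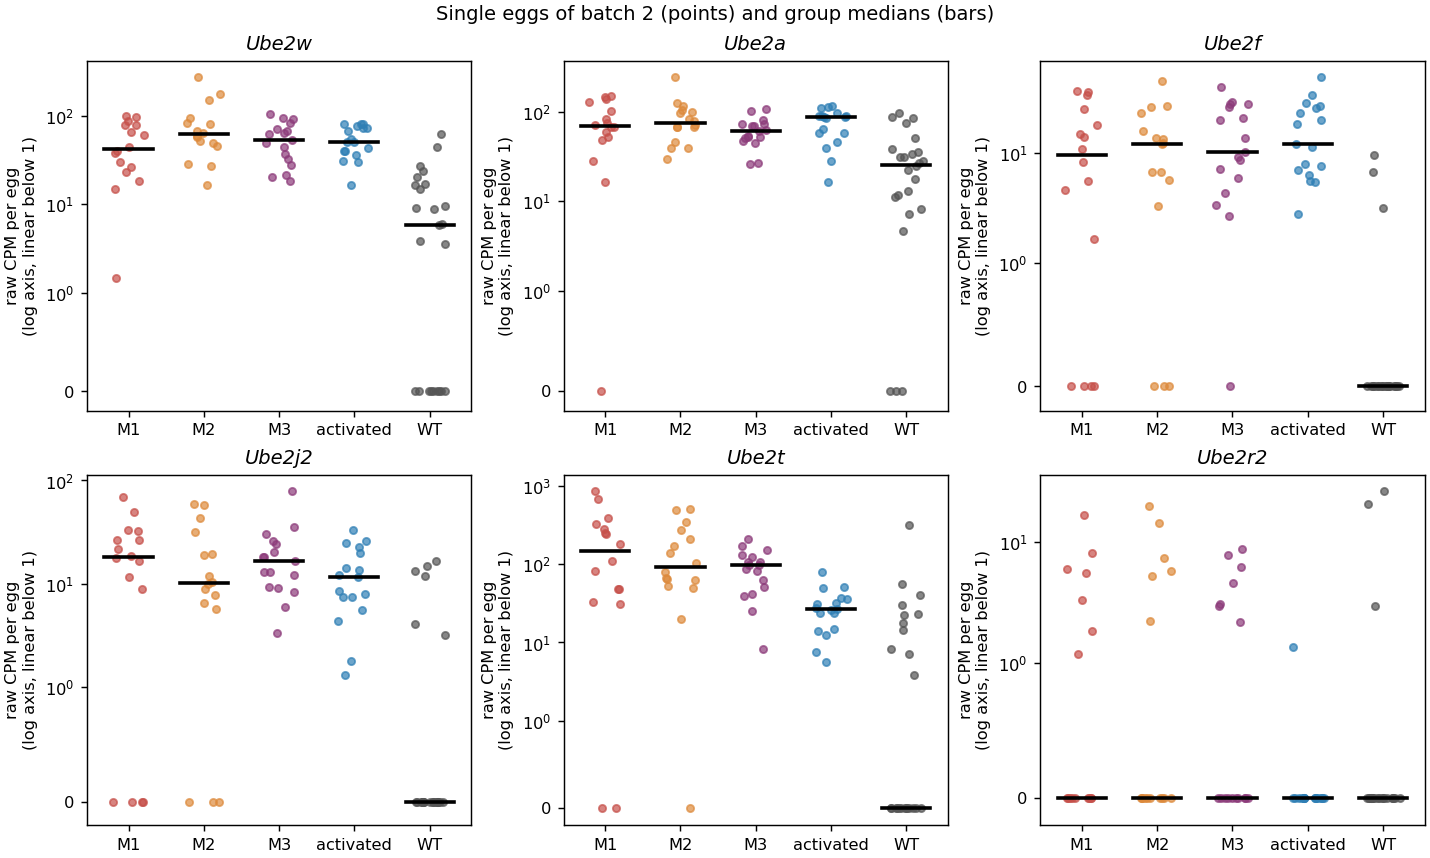
Raw CPM per egg (y, log axis, linear below 1) in the eggs of batch 2 with at least 10000 counts (points) and the group median (bar) for 6 Ube2 genes, by group (x). The WT median is 5.89 for Ube2w and 25.7 for Ube2a and is 0 for Ube2f, Ube2j2, Ube2t and Ube2r2, and WT eggs had the lowest median of total counts.

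Ube2g1, Ube2g2, Ube2k and Ube2r2 build chains linked through lysine 48, the usual signal for the proteasome. None of the 4 was called in mutant eggs, and in activated eggs Ube2g1 rose and Ube2r2 fell. Ube2g1 (chr11:72607283-72686481, plus strand) had 360 CPM in M1, 610 in M2 and 592 in M3 eggs of batch 1, against 307 in WT eggs. In batch 2 it had 220 in M1, 216 in M2, 192 in M3 and 348 in activated eggs, against 167 in WT eggs. The activated sum was the highest of batch 2, and its log2 fold over WT was 1.20 ± 0.31 (edgeR adjusted p = 0.0133); with sums per plate the adjusted p was 0.0503. For mutant over WT the fold was 0.53 ± 0.21 (adjusted p = 0.128). Ube2r2 (chr4:41135743-41193380, plus strand), a CDC34 relative that works with cullin ligases, was near the lower limit of counting. It had 1 count in the 17 activated eggs, against 17 counts in the 24 WT eggs of batch 2, of which 1 WT egg held 11. The raw ratio was 0.0237 (95% interval 5.66e-04 to 0.151, counting error only), and the edgeR adjusted p was 0.0293. Without that WT egg and WT egg 45 the adjusted p was 0.0572, and without the WT sum of batch 2 it was 0.0533. In mutant eggs Ube2r2 had 0.729, 2.10 and 1.86 CPM in M1, M2 and M3 eggs of batch 1, against 2.51 in WT eggs, and 2.56, 3.58 and 1.63 in batch 2, against 3.63 in WT eggs. Each mutant sum was below the WT sum of its batch, though mutant and WT sums overlapped across batches. The mutant fold of −0.65 ± 0.70 was smaller than its error.

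Ube2k, which lengthens K48-linked chains, had 391, 594 and 587 CPM in M1, M2 and M3 eggs of batch 1, against 625.2 in WT eggs. For batch 2 the values were 325, 342, 356 and 323 in M1, M2, M3 and activated eggs, against 481 in WT eggs. The WT sum was the highest of each batch, but neither the mutant fold (−0.39 ± 0.18, adjusted p = 0.203) nor the activated fold (−0.50 ± 0.28, adjusted p = 0.301) was called. Without TMM scaling the ratio of Ube2k to WT was 0.904 and 0.887 in mutant eggs of batches 1 and 2, and 0.846 in activated eggs. Ube2g2, the E2 of the ligases of endoplasmic reticulum quality control, had 211, 203 and 231 CPM in M1, M2 and M3 eggs of batch 1, against 84.5 in WT eggs. In batch 2 it had 177, 162, 158 and 91.9 in M1, M2, M3 and activated eggs, against 177 in WT eggs. Its TMM-scaled mutant sums were above WT in batch 1 and at or below it in batch 2. Without TMM scaling the mutant to WT ratio in batch 2 was 1.16. Ube2g2 was not called by edgeR in mutant eggs (0.54 ± 0.27, adjusted p = 0.264) or in activated eggs (−0.49 ± 0.40, adjusted p = 0.504). Within batch 2 alone activated minus WT was −0.95 in log2 CPM.

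Ube2j1 and Ube2j2 are anchored in the membrane of the endoplasmic reticulum and serve the disposal of misfolded proteins. Ube2j2 rose in mutant eggs and Ube2j1 did not pass. Ube2j2 (chr4:155943831-155959604, plus strand) had 22.6 CPM in M1, 36.8 in M2 and 29.9 in M3 eggs of batch 1, against 12.9 in WT eggs. Batch 2 gave 20.7 in M1, 14.7 in M2, 15.8 in M3 and 11.9 in activated eggs, against 4.49 in WT eggs, which rests on 21 counts in 6 of 24 eggs. The log2 fold was 1.49 ± 0.36 for mutant over WT (edgeR adjusted p = 0.0151), with 1.17 in batch 1 and 1.88 in batch 2, and 1.04 ± 0.52 for activated over WT (adjusted p = 0.223). The mutant call was lost with eggs of equal depth (adjusted p = 0.109), with sums per plate (0.0647), without the batch 1 sum of M2 (0.0518) and without the batch 2 sum of WT (0.128). Ube2j1 had 35.4 to 47.2 CPM in the mutant sums of batch 1, against 41.2 in WT eggs, and 11.5 to 18.9 in those of batch 2, against 27.8 in WT eggs (fold −0.46 ± 0.28, adjusted p = 0.364).

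Ube2n builds K63-linked chains, which signal rather than mark for degradation, together with an inactive partner, Ube2v1 or Ube2v2. None of the 3 was called. Ube2n had 23.9 to 25.6 CPM in the mutant sums of batch 1, against 20.9 in WT eggs. The level in batch 2 was 25.5 to 29.2 in the mutant sums and 32.3 in activated eggs, against 12.6 in WT eggs. Its fold was 0.62 ± 0.30 in mutant eggs (adjusted p = 0.230) and 0.98 ± 0.44 in activated eggs (adjusted p = 0.171). Both partners were scarce: Ube2v1 was at 0.214 to 1.77 CPM and Ube2v2 at 0 to 0.765 CPM over the 9 sums. Of the 50-base stretches of Ube2v1, 63.5% occur in other annotated genes, Gm20431 among them, so its counts are uncertain.

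Among the E2s of ubiquitin-like modifiers, Ube2f and Ube2m carry NEDD8 and Ube2z carries ubiquitin or FAT10. Ube2f rose in both mutant and activated eggs, and Ube2m and Ube2z were not called. Ube2f (chr1:91250304-91290337, plus strand), which neddylates CUL5, had 3.13 CPM in M1, 5.35 in M2 and 3.42 in M3 eggs of batch 1, against 1.30 in WT eggs. In batch 2 it had 13.1 in M1, 13.5 in M2, 15.5 in M3 and 17.1 in activated eggs, against 2.14 in WT eggs. Mutant sums were above WT sums with no overlap, and the activated sum was the highest of all. The log2 fold was 2.03 ± 0.49 for mutant over WT (edgeR adjusted p = 0.0134) and 2.42 ± 0.66 for activated over WT (adjusted p = 0.0194). The WT sum of batch 2 held 10 counts, 6 of them in 1 egg. Without that sum the folds were 1.57 in mutant eggs (adjusted p = 0.136) and 1.83 in activated eggs (adjusted p = 0.142), and with sums per plate the adjusted p was 0.0597 and 0.0672. At 60000 counts per egg, Ube2f was found in 7 of 16 M1, 8 of 16 M2, 7 of 17 M3 and 11 of 17 activated eggs of batch 2, against 0 of 24 WT eggs. In batch 1 it was found in 0 of 4 M1, 1 of 2 M2, 0 of 3 M3 and 0 of 5 WT eggs.

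Ube2m, the NEDD8 E2 of the other cullins, had 37, 30 and 9 counts in M1, M2 and M3 eggs of batch 1, against 2 in WT eggs, and 10, 14, 32 and 16 in M1, M2, M3 and activated eggs of batch 2, against 3 in WT eggs. In raw CPM the mutant to WT ratio was 21.8 in batch 1 (95% interval 5.84 to 184) and 3 in batch 2 (0.975 to 15.0), counting error only, and the fit did not call it (adjusted p = 0.291). Ube2z was at 6.62 to 16.8 CPM in the mutant sums, 16.2 in activated eggs, and 9.31 and 7.05 in WT eggs.

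Ube2t is the E2 of the Fanconi anaemia pathway, which ubiquitinates FANCD2 with the ligase FANCL, and it rose in mutant eggs. Ube2t (chr1:134962565-134974162, plus strand) had 226 CPM in M1, 109.2 in M2 and 52.0 in M3 eggs of batch 1, against 8.69 in WT eggs. The level in batch 2 was 160 in M1, 128 in M2, 88.95 in M3 and 26.5 in activated eggs, against 40.8 in WT eggs. The mutant sums did not overlap the WT sums, and in both batches M1 was the highest and M3 the lowest of the mutant groups. The log2 fold was 2.49 ± 0.52 for mutant over WT (edgeR adjusted p = 0.0223), with 3.63 in batch 1 and 1.58 in batch 2, and 0.02 ± 0.67 for activated over WT (adjusted p = 1). Within batch 2 alone activated minus WT was −0.62 in log2 CPM for Ube2t. The mutant fold of Ube2t was the highest of the called genes over both batches, but in batch 2 Ube2f (2.64) and Ube2j2 (1.88) were above it, and without the batch 1 sum of WT Ube2f was at 2.72, against 1.602 for Ube2t. At equal depth Ube2f and Ube2w (2.89) were above Ube2t (2.03). Single eggs held much of the sums. M1 egg 6 of batch 1 had 642 raw CPM, against 112 in the rest of its sum, and WT egg 45 of batch 2 held most of the 191 WT counts there (74.4%), at 317 raw CPM against 9.82 in the rest. Without WT eggs 33 and 45 the mutant fold was 3.45, and Ube2t was called in activated over WT eggs as well (1.18 ± 0.39, adjusted p = 0.0479). The mutant call was lost without the batch 1 sum of M3 (adjusted p = 0.0854) and without the WT eggs in which few genes took many counts (0.0575). Thinned to equal depth, Ube2t was found in 14 of 16 M1, 14 of 16 M2, 17 of 17 M3 and 14 of 17 activated eggs of batch 2, against 9 of 24 WT eggs. In batch 1 it was found in 3 of 4 M1, 2 of 2 M2, 3 of 3 M3 and 5 of 5 WT eggs, so detection did not separate the groups there.

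The remaining partners were not called in mutant or activated eggs. Ube2h, the E2 of the CTLH ligase known from maternal protein clearance in the fly, had 68.1 to 100.1 CPM in the mutant sums of batch 1, against 108.6 in WT eggs. Batch 2 gave 133.1 to 174 in the mutant sums and 78.1 in activated eggs, against 92.8 in WT eggs. Ube2h shares 44.2% of its 50-base stretches with other annotated genes. Ube2o, an E2 that also acts as its own ligase, had 20.6 to 35.6 CPM in the mutant sums, 19.5 in activated eggs, and 15.1 and 24.2 in WT eggs. Ube2l3, the E2 of RING-between-RING ligases, was at 2.74 to 6.53 CPM in the mutant sums, 7.10 in activated eggs, and 4.38 and 2.35 in WT eggs. Ube2q1 and Ube2u stayed under 2.1 CPM in every sum, too few for the fits to place (SE of the mutant fold 2.06 and 1.30).

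Mutant and activated eggs were also set against each other in the same fit. No Ube2 gene was called by edgeR's quasi-likelihood test, against 4.84% of all genes (3.43% higher and 1.42% lower). By edgeR's unadjusted p under 0.05 there were 6, and DESeq2 called 1, Ube2t (2.47 ± 0.50, adjusted p = 3.62e-05). The share of all genes passing either of these was not worked out, so these counts have no background beside them. The edgeR fold of Ube2t was 2.48 ± 0.71 (adjusted p = 0.101), and it was called, with Ube2g2 or Ube2h under some, in 10 of the 20 other settings. Ube2a (0.21 ± 0.56), Ube2w (0.16 ± 0.35) and Ube2f (−0.39 ± 0.55) differed by less than their errors. The fold of Ube2g1 was −0.67 ± 0.27 (adjusted p = 0.187).

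Whether the mutant difference was the same in both batches was tested as an interaction over 31 Ube2 genes. No Ube2 gene and none of 13566 genes (0.0%) was called by edgeR. By edgeR's unadjusted p under 0.05 there were 4 of the 31, and DESeq2 called 2, Ube2a and Ube2g2. For these counts, too, the share of all genes was not worked out. The mutant log2 fold in batch 2 minus that in batch 1 was −2.08 ± 0.42 for Ube2a (edgeR adjusted p = 0.177), −1.45 ± 0.31 for Ube2g2 (0.178), −2.27 ± 0.97 for Ube2t (0.572) and 1.10 ± 0.40 for Ube2h (0.468).

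**Figure D5:**
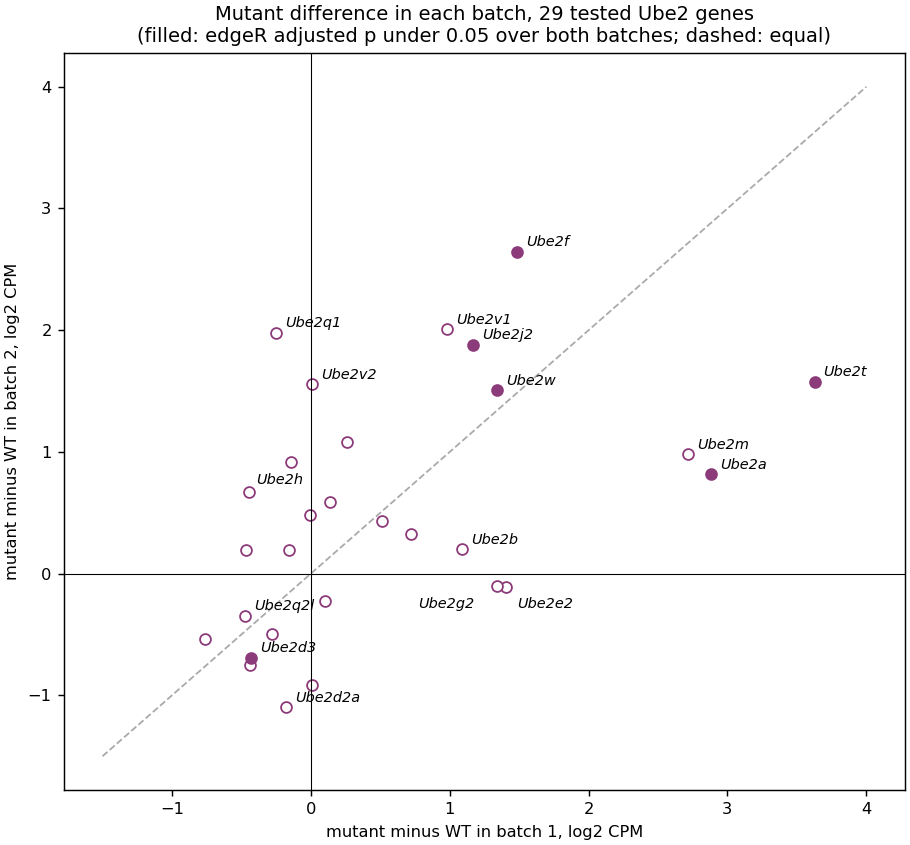
Mutant minus WT difference in log2 CPM (prior count 2) in batch 1 (x) and batch 2 (y) for 29 of the 30 tested Ube2 genes; filled points were called over both batches and the dashed line marks equal differences. Ube2w lies near the line at 1.34 and 1.51, and Ube2a (2.88 and 0.82) and Ube2t (3.63 and 1.58) lie below it.

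Among the mutant groups, compared within plates over 28 Ube2 genes, none was called by edgeR in M2 against M1 (0.0% of 11609 genes called; 1 Ube2 gene with unadjusted p under 0.05, 0 by DESeq2), M3 against M1 (0.0517% of genes, 0.00861% higher and 0.0431% lower; 1 and 1) or M3 against M2 (0.0% of genes; 2 and 0). These percentages are for edgeR's adjusted p, and the shares of all genes by unadjusted p or by DESeq2 were not worked out. Ube2t had 93.7, 91.2 and 54.7 CPM in M3 eggs on Plate1, Plate2 and in batch 1, 119, 153 and 110 in M2 eggs and 140, 177 and 231 in M1 eggs. M3 was the lowest and M1 the highest on each of the 3, with batch 1 taken as 1 plate. The batch 1 value of M1 rests on egg 6 (3954 of 6198 counts), which the deposited egg table puts on another plate than the other 3 M1 eggs. Without it the sum was at 112 raw CPM, and the 2 M2 eggs of batch 1 were at 91.8 and 120.4. With the deposited plates, too, no Ube2 gene was called among the mutant groups. The fold of M3 over M1 was −1.22 ± 0.27 (edgeR adjusted p = 0.361, DESeq2 adjusted p = 0.00828). Ube2q2l was the only other Ube2 gene with an unadjusted p under 0.05, with a fold of −0.42 ± 0.18 for M2 over M1 (adjusted p = 0.796) and 0.40 ± 0.18 for M3 over M2 (adjusted p = 1.000).

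The genes on either side of the E2 step were read from lists of ubiquitin-like modifiers, E1 enzymes, other E2-like genes, E3 ligases known to use Ube2 enzymes, and cullin and neddylation genes. For the counts that follow, 5.36% of all genes were called higher and 4.03% lower in mutant eggs, and 5.66% higher and 7.33% lower in activated eggs. Of 16 modifier genes tested, 2 rose and 0 fell in mutant eggs: Sumo3 (1.96 ± 0.24, edgeR adjusted p = 7.97e-05) and Nedd8 (1.30 ± 0.26, adjusted p = 0.00467), the modifier that Ube2f carries. The same 2 rose in activated eggs, Sumo3 by 1.67 ± 0.31 and Nedd8 by 1.40 ± 0.37, and Sumo2 fell (−2.71 ± 0.79). Of 9 E1 genes, 0 rose and 1 fell in mutant eggs, and 0 rose and 1 fell in activated eggs, Uba6, an E1 that loads Ube2z (−1.32 ± 0.41). None of the 9 other E2-like genes was called in either comparison. Of 41 E3 ligases, 3 rose and 3 fell in mutant eggs, and 2 rose and 7 fell in activated eggs. Syvn1, a ligase of the endoplasmic reticulum membrane, fell in mutant eggs (−1.06 ± 0.20) and in activated eggs (−1.93 ± 0.36), while Rnf5, another ligase of that membrane, rose in both (1.34 ± 0.26 and 2.25 ± 0.36). Rnf40, the partner of Ube2a on histone H2B, rose by 0.70 ± 0.19 in mutant eggs and 1.47 ± 0.28 in activated eggs. Ubr4, a ligase that reads N-terminal degrons, fell in mutant eggs (−0.67 ± 0.20) and in activated eggs (−1.62 ± 0.35), Mms19 rose in mutant eggs (1.02 ± 0.27), and Shprh, a ligase of PCNA, fell in activated eggs (−2.07 ± 0.47). Of 20 cullin and neddylation genes, 1 rose and 1 fell in mutant eggs and 1 rose and 2 fell in activated eggs. Dcun1d4, a factor that helps NEDD8 onto cullins, rose in both (1.25 ± 0.28 and 1.69 ± 0.40), Ddb1 fell in mutant eggs (−0.68 ± 0.17), and Cul4a (−2.79 ± 0.63) and Dcun1d2 (−1.55 ± 0.37) fell in activated eggs. The median mutant log2 fold was 0.09 in the modifiers, −0.20 in the E1s, −0.13 in the other E2-like genes, −0.18 in the ligases and −0.12 in the cullin genes, against 0.06 over all genes. The median activated fold was 0.00 in the modifiers, 0.21 in the E1s, 0.04 in the other E2-like genes, −0.13 in the ligases and −0.17 in the cullin genes, against 0.15 over all genes. In mutant over activated eggs Atg12 (1.25 ± 0.35) and Stub1 (1.36 ± 0.38) were higher and Dcun1d5 lower (−1.11 ± 0.29), and no other listed gene was called.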

How the data were processed

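The deposited values were raw counts per gene and egg, whole numbers that were not normalised. The submitters' processing notes name STAR and HTSeq, and the builds GRCm38 and mm10 (versions, annotation and use of strand were not given in the sources used here). Reads of overlapping genes cannot be told apart. Counts of eggs were summed per group and batch (9 sums, 3 residual degrees of freedom). Group and batch were fitted in edgeR 4.0.16 under R 4.3.3, with TMM scaling, the package's filter at a minimum count of 10 and the robust quasi-likelihood test, adjusted by Benjamini-Hochberg over all genes (threshold 0.05). The p-values measure only the spread between these sums, which may be technical; M1 to M3 may share animals, and the 1 activated sum was assumed to vary like the others. An SE is the fold divided by the root of the F statistic. The interaction used 8 sums, and comparisons of mutant groups 9 sums of group and plate. DESeq2 1.42.0 was an alternative. Positions and lengths are from GENCODE M21 and RefSeq (GRCm38.p6). Values are printed per sum for called genes and for the highest per kilobase by either length; the second length, and the settings leaving out named eggs, were added after the data were seen. The members and lists were chosen with earlier results of these data known. The fits were tested on simulated counts. Values of 1 tested Ube2 gene and of some listed genes enter the counts but are not reported here.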

Additional observations from a re-analysis of the deposited data

How the results depend on the processing

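No Ube2 fold that was called in the full data changed sign, in that comparison, under any setting tried. Folds that were not called were not followed for their sign. The count of 6 called in mutant over WT eggs was 0 without a batch term and 3 with sums per plate (Ube2a, Ube2t and Ube2w), and 4 to 6 when 1 sum was left out. The count of 4 in activated over WT eggs was 0 without a batch term, 0 with sums per plate, and 3 to 5 when 1 sum was left out. Without the batch 2 sum of WT the count was again 4, but it shared only Ube2g1 with the full data, beside Ube2a, Ube2h and Ube2t. In mutant over activated eggs, where 0 were called, the count was 3 with no filter, 1 by DESeq2, 2 with eggs of equal depth, 2 with the mutant eggs of a batch in 1 sum, 1 without M1 eggs 6 and 21, 1 without the WT eggs holding most Ube2t or Ube2r2 counts, and 0 to 3 when 1 sum was left out. The interaction with batch gave 1 with no filter and 2 by DESeq2, and M3 over M1 gave 1 with no filter and 1 by DESeq2, each in place of 0. The cause of these changes was not tested, except that fits with sums per plate or fewer sums have other degrees of freedom. Shares of all genes called under these settings were not worked out. A changed count may therefore not be particular to the Ube2 genes. Upper quartile scaling moved the median fold of all genes from 0.15 to 0.30 for activated over WT and from −0.05 to −0.20 for mutant over activated; the Ube2 medians moved likewise, to 0.46 and −0.16. No paired analysis was possible because the sums per group and batch carry no replicate numbers shared between groups; batch, or plate among the mutant groups, was a term of the fits. Depth limits the scarce genes most: WT eggs of batch 2 held 5436993 counts in all, against 13512948 in activated eggs, so a level such as that of Ube2f there rests on 10 counts.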
